A study of Danio rerio with 14 samples.

Results

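Cytochrome P450 family 1 (CYP1) was followed in whole zebrafish embryos through 4 genes, cyp1a, cyp1b1, cyp1c1 and cyp1c2, taken by their Ensembl IDs from the 32105 genes listed in each library. They were chosen by gene identity, with earlier results of these data known. cyp1d1, also of this family, is not among the 4 and is treated separately. The 4 groups were ahrra-null embryos given 2 nM TCDD (4 libraries, replicates 13 to 16), ahrra-null embryos given the carrier, 0.01% DMSO (4 libraries, replicates 9 to 12), wild-type embryos given TCDD (3 libraries, replicates 6 to 8) and wild-type embryos given DMSO (3 libraries, replicates 2 to 4). In every group the exposure lasted 1 h at 6 h post-fertilization (hpf), was ended by rinsing, and total RNA was taken at 72 hpf. Both genotypes are labelled as Tupfel longfin fish, and the null line was made with zinc finger nucleases.

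The sources used here do not give the position of the lesion in ahrra, the number of embryos behind a library, or whether libraries came from separate clutches, so p-values measure the spread between these libraries, which may be technical. Library totals lay between 16852240 and 23081186 counts. All 4 CYP1 genes were measured in every library and passed the filter on low counts, as did 21606 genes in all. Levels are given as CPM, read counts scaled to the size of the library and not corrected for transcript length. A difference in CPM between genes therefore does not show a difference in transcript number. Ratios of genes and shares of reads are used below to compare groups.

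CYP1 enzymes are heme-containing monooxygenases of the endoplasmic reticulum that oxidise planar aromatic pollutants and some endogenous molecules, among them estradiol, retinoids and fatty acids. Their genes are textbook targets of the aryl hydrocarbon receptor (AHR), a transcription factor held in the cytoplasm until a ligand binds. The liganded receptor pairs with ARNT in the nucleus and binds xenobiotic response elements near its targets. TCDD is a dioxin that binds the receptor tightly and is broken down slowly. The repressor proteins encoded by ahrra and ahrrb compete with the receptor for ARNT and for DNA, and their genes are themselves receptor targets, which closes a feedback loop. In zebrafish, ahr2 encodes the main receptor for TCDD, and AHR-driven cyp1a in the embryo is known from the vessel lining, the heart and other organs. RNA of whole embryos cannot place a transcript in a cell type, and more cells with a transcript cannot be told apart from more transcript per cell.

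All 4 CYP1 genes rose with TCDD in both lines. In ahrra-null embryos 0.815% of the 21606 genes tested were called higher with TCDD by edgeR's quasi-likelihood test at a Benjamini-Hochberg adjusted p under 0.05, and in wild-type embryos 0.481% were. For each of the 4 genes every TCDD library lay above every DMSO library of its line, which held for 3.14% of genes in ahrra-null and 6.64% in wild type. By size of the log2 fold change, cyp1a was at rank 1 of all genes tested in both lines, and cyp1c2 was at rank 4 in both.

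The gene cyp1a, whose product is the enzyme most used as a sign of dioxin exposure in fish, is printed as CYP1A1 in the table of symbols (ENSDARG00000098315). With TCDD it stood at 1057, 1103, 465 and 1094 CPM in the 4 ahrra-null libraries, against 4.78, 4.36, 3.35 and 3.75 CPM with DMSO. Wild-type libraries stood at 1553, 1011 and 1337 CPM with TCDD, against 6.61, 8.06 and 5.56 CPM with DMSO. The TCDD libraries of both lines were far above all DMSO libraries, and replicate 15 of the ahrra-null line was the lowest TCDD library. The TCDD effect on the log2 scale was 7.83 ± 0.37 in ahrra-null (SE, adjusted p = 1.87e-06) and 7.59 ± 0.41 in wild type (SE, adjusted p = 7.76e-06), or 228-fold and 192-fold. The DMSO levels rest on 61 to 101 reads per library in ahrra-null and 103 to 158 in wild type, so the folds carry the counting error of those low levels.

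The product of cyp1b1 (ENSDARG00000068934) oxidises estradiol and retinoids in mammals, and the gene is tied to eye development there. It had 37.9, 38.5, 17.2 and 38.5 CPM in ahrra-null libraries with TCDD, against 5.91, 5.57, 5.44 and 4.44 CPM with DMSO. Its wild-type level was 41.7, 30.7 and 42.5 CPM with TCDD, against 6.24, 6.89 and 5.78 CPM with DMSO. Among the 4 genes it showed the smallest TCDD effect in each line, 2.63 ± 0.27 in ahrra-null (log2, SE, adjusted p = 0.000657) and 2.60 ± 0.30 in wild type (adjusted p = 0.0019). It was nevertheless at ranks 10 and 14 of all genes by the size of its rise.

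Fishes carry the CYP1C genes, which mammals lack. cyp1c1 (ENSDARG00000101195) stood at 421, 407, 216 and 387 CPM in ahrra-null libraries with TCDD, against 11.7, 10.8, 9.72 and 10.8 CPM with DMSO. In the wild-type line cyp1c1 had 325, 307 and 309 CPM with TCDD, against 12.7, 16.1 and 12.9 CPM with DMSO. The ahrra-null TCDD libraries were above all wild-type TCDD libraries except for replicate 15, which was below all of them. The TCDD effect was 5.05 ± 0.22 in ahrra-null (log2, SE, adjusted p = 1.34e-06) and 4.50 ± 0.25 in wild type (adjusted p = 7.76e-06).

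cyp1c2 (ENSDARG00000101789) is the neighbour of cyp1c1 among protein-coding genes on chromosome 17 in the RefSeq gene table of assembly GRCz12tu; cyp1a, cyp1b1 and cyp1d1 lie on chromosomes 18, 13 and 5 there. It had 92.4, 87.7, 39.9 and 84.6 CPM in ahrra-null libraries with TCDD, against 3.26, 2.47, 2.69 and 2.84 CPM with DMSO. In wild type it had 74.7, 60.2 and 65.6 CPM with TCDD, against 4.21, 3.47 and 3.19 CPM with DMSO. As for cyp1c1, only replicate 15 of the ahrra-null TCDD libraries fell below the wild-type TCDD libraries. The effect was 4.75 ± 0.30 in ahrra-null (log2, SE, adjusted p = 1.89e-05) and 4.21 ± 0.34 in wild type (adjusted p = 0.000168). cyp1c1 and cyp1c2 are paralogs, and the sources used here do not say how reads matching both were counted, so their separate levels are uncertain to that extent.

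**Figure D1:**
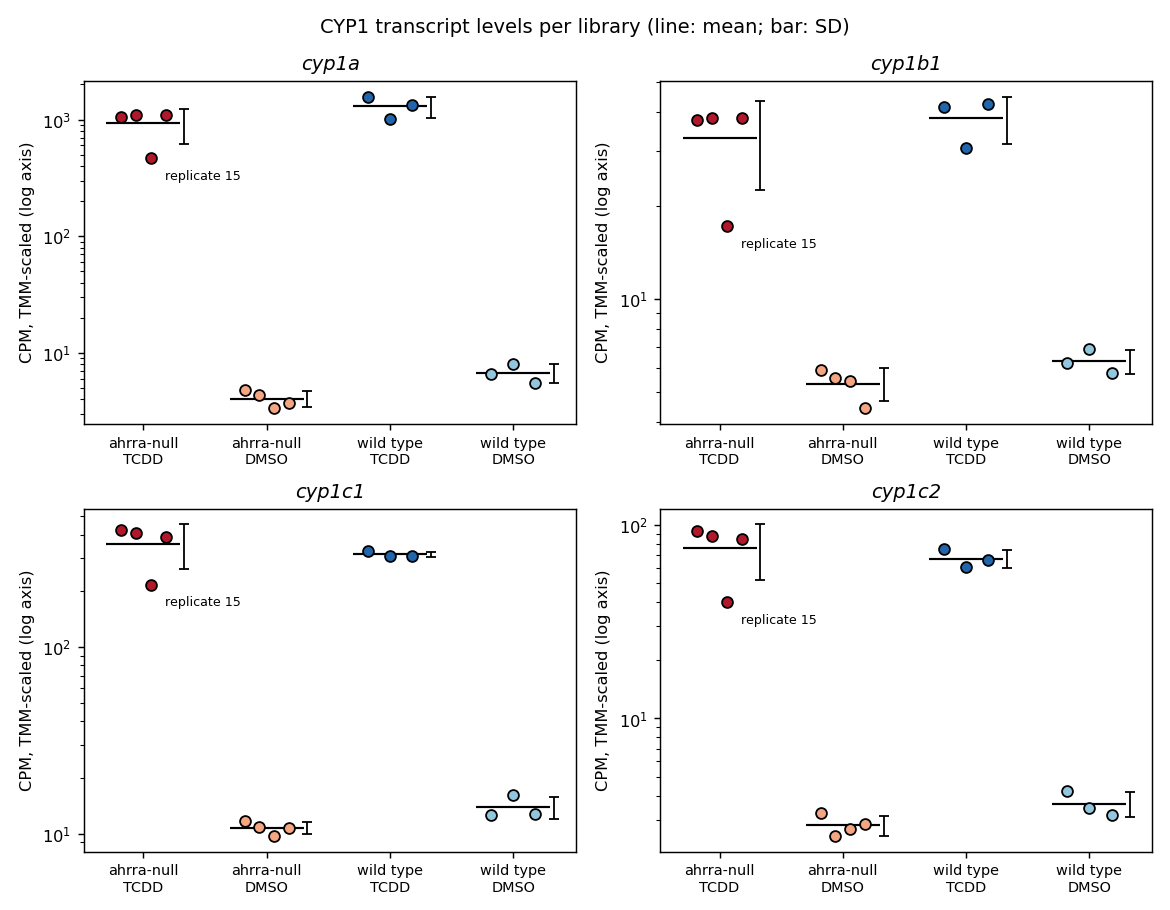
Level of each CYP1 gene in CPM on a log axis, one point per library, with the mean and SD of each group, for ahrra-null TCDD, ahrra-null DMSO, wild-type TCDD and wild-type DMSO libraries. The TCDD and DMSO points of each line are apart for all 4 genes, and the lowest ahrra-null TCDD point is replicate 15 in every panel, with cyp1a at 465 CPM.

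With DMSO the spread between libraries was near that of read counting for some genes and above it for others. For cyp1c2 in ahrra-null DMSO libraries the coefficient of variation was 11.9%, with 13.3% from counting, and for cyp1b1 in wild-type DMSO libraries it was 8.84%, with 9.14% from counting. cyp1a varied by 15.6% in ahrra-null DMSO libraries, with 11.1% from counting, and by 18.6% in wild-type DMSO libraries, with 8.83% from counting. cyp1c1 varied by 13.7% in wild-type DMSO libraries, with 6.16% from counting. With TCDD, cyp1a in wild-type libraries varied by 21.0%, with 0.612% from counting. cyp1c1 was the steadiest of the CYP1 genes in the wild-type TCDD libraries, at 3.13%.

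Set as a ratio of each TCDD library to the mean of the DMSO libraries of its line, the size of the rise could be followed library by library. All ratios of a line share that DMSO mean, which was lower in ahrra-null for all 4 genes. For cyp1a the lowest, median and highest ratios were 115, 265 and 272 in ahrra-null and 150, 198 and 230 in wild type. The median cyp1a level with TCDD was lower in ahrra-null, at 1076 CPM against 1337 CPM in wild type. Its larger median ratio in ahrra-null goes with a lower DMSO mean, at 4.06 CPM against 6.74 CPM in wild type. For cyp1c1 they were 20.0, 36.9 and 39.1 in ahrra-null and 22.1, 22.3 and 23.4 in wild type. For cyp1c2 the median ratio was 30.6 in ahrra-null and 18.1 in wild type, and for cyp1b1 it was 7.14 and 6.62. The ranges of the lines overlapped for all 4 genes, and the lowest ahrra-null ratio, that of replicate 15, was in each case below the lowest wild-type ratio.

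A further gene of the family, cyp1d1, is known in zebrafish as a CYP1 gene that dioxin does not induce. It had 11.7, 10.6, 11.2 and 9.70 CPM in ahrra-null libraries with TCDD, against 10.6, 10.9, 11.3 and 12.1 CPM with DMSO. Wild-type libraries held 9.97, 10.4 and 12.04 CPM with TCDD, against 13.3, 11.2 and 10.9 CPM with DMSO. The groups overlapped in both lines, and no TCDD effect was detected, with log2 differences of -0.05 ± 0.09 in ahrra-null (SE, adjusted p = 0.886) and -0.13 ± 0.11 in wild type (adjusted p = 0.839). The 95% intervals from limma voom ran from -0.25 to 0.12 in ahrra-null and from -0.32 to 0.09 in wild type.

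**Figure D2:**
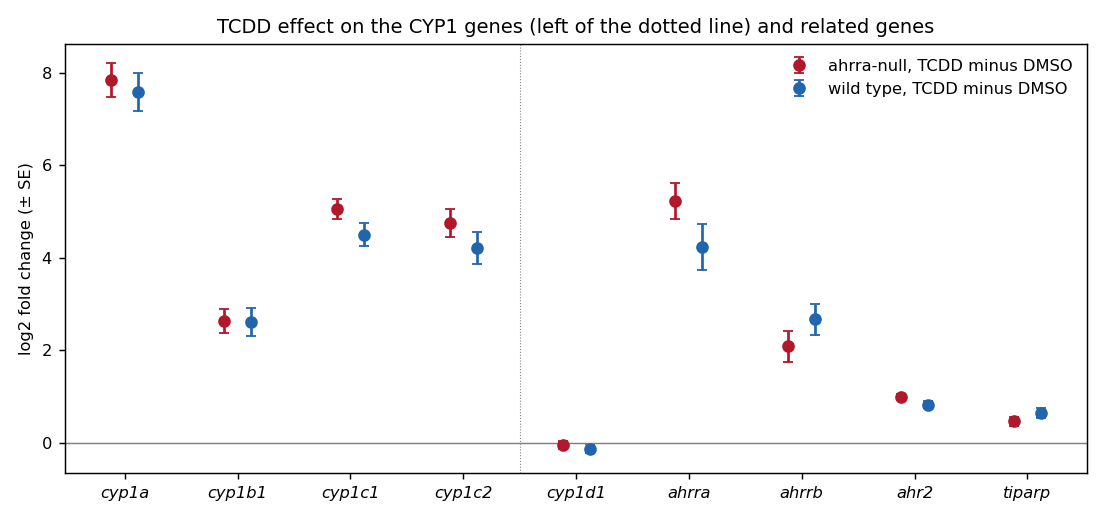
TCDD effect (log2 fold change with its SE, TCDD over DMSO) of the 4 CYP1 genes, cyp1d1 and the receptor and feedback genes, with the ahrra-null point left of the wild-type point for each gene. cyp1a has the largest effect in both lines, at 7.83 in ahrra-null and 7.59 in wild type, and cyp1d1 is near 0.

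The feedback genes and the receptor rose beside the CYP1 genes. The targeted gene, ahrra, had 44.8, 54.5, 21.1 and 52.1 CPM in ahrra-null TCDD libraries, 1.09, 1.42, 0.879 and 1.19 CPM in ahrra-null DMSO libraries, 20.5, 14.1 and 17.8 CPM in wild-type TCDD libraries and 1.39, 0.612 and 0.810 CPM in wild-type DMSO libraries. Its transcript was not lower in the null line, so its level does not check the genotype labels; counts per gene do not show the lesion. Its TCDD effect was 5.23 ± 0.38 (log2, SE) in ahrra-null and 4.23 ± 0.50 in wild type. ahrrb, the other repressor gene, rose by 2.08 ± 0.33 in ahrra-null and 2.67 ± 0.34 in wild type. Between the lines with TCDD, ahrra was higher in ahrra-null by 1.30 ± 0.28 (adjusted p = 0.00714) and ahrrb lower, at -0.85 ± 0.26 (adjusted p = 0.0198). tiparp, which encodes an enzyme that modifies and restrains the receptor, rose by 0.46 ± 0.09 in ahrra-null (adjusted p = 0.0216) and by 0.63 ± 0.11 in wild type (adjusted p = 0.00764).

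Of the 11 tested genes for AHR receptors and their partners, ahr2 was the 1 called in each line, with a rise of 0.99 ± 0.06 in ahrra-null (log2, SE, adjusted p = 3.21e-10) and 0.82 ± 0.07 in wild type (adjusted p = 1.66e-07). The list's median log2 change was -0.01 in ahrra-null and -0.03 in wild type, beside 0.00 and -0.00 over all genes. A list of 16 tested genes joined AHR-linked genes of other kinds, among them cyp1d1 and FOXQ1, with genes for phase II enzymes. These enzymes attach sugar, sulfate or glutathione to oxidised products. Of the 16 genes, 5 rose and 0 fell in ahrra-null, and 4 rose and 0 fell in wild type. The genes called in both lines were ugt1b5, ugt1b1, sult6b1 and FOXQ1, and gstp1.2 was called in ahrra-null. Among them were ugt1b5, a glucuronosyltransferase gene, at 2.21 ± 0.10 in ahrra-null and 1.94 ± 0.12 in wild type, and sult6b1, a sulfotransferase gene, at 1.68 ± 0.16 in ahrra-null and 1.44 ± 0.18 in wild type. The list's median was 0.39 in ahrra-null and 0.29 in wild type. Over all genes tested, 0.815% were called higher with TCDD in ahrra-null and 0.481% in wild type.

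P450 enzymes need electrons, chiefly from P450 reductase and partly through cytochrome b5, and a heme group. Of 21 tested genes for these supplies 1 rose with TCDD and 0 fell in each line, with a list median of 0.00 in ahrra-null and 0.02 in wild type. The gene that rose, printed as CYB5A (ENSDARG00000098589), encodes a cytochrome b5. It had 80.0, 88.5, 48.9 and 90.1 CPM in ahrra-null TCDD libraries, against 25.7, 29.1, 27.2 and 28.0 CPM in ahrra-null DMSO libraries. Wild-type libraries had 110, 85.2 and 102 CPM with TCDD, against 39.5, 32.4 and 32.3 CPM with DMSO. Neither pair of groups overlapped, and the effects were 1.48 ± 0.18 in ahrra-null (log2, SE, adjusted p = 0.00208) and 1.51 ± 0.20 in wild type (adjusted p = 0.00509). Of 17 tested genes of retinoid, estradiol, eicosanoid and melatonin metabolism, whose substrates CYP1 enzymes can share, 0 rose and 0 fell with TCDD in either line. Over all genes tested, 0.815% were called higher and 0.361% lower in ahrra-null, and 0.481% and 0.375% in wild type. A count of 0 in so short a list is near those shares.

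Levels of the 4 genes were then compared between the lines. With TCDD no CYP1 gene was called in the genotype comparison over all libraries, where 25.8% of genes were, and the groups overlapped for all 4. cyp1a averaged 930.0 ± 310.3 CPM in ahrra-null TCDD libraries (SD, n = 4) and 1300.2 ± 273 CPM in wild-type TCDD libraries (SD, n = 3), a log2 difference of -0.48 ± 0.27 (SE, adjusted p = 0.216). Under limma voom with sample quality weights that difference was -0.51, with a 95% interval from -0.88 to -0.14 and an adjusted p of 0.0313, in a fit that called 17.6% of genes lower in ahrra-null. cyp1b1 averaged 33.0 ± 10.5 CPM in ahrra-null TCDD libraries and 38.3 ± 6.64 CPM in wild-type TCDD libraries, a difference of -0.22 ± 0.23 (adjusted p = 0.541; voom interval -0.58 to 0.09).

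The CYP1C genes had the opposite sign in the same comparison. cyp1c1 averaged 358 ± 95.8 CPM in ahrra-null TCDD libraries and 313 ± 9.80 CPM in wild-type TCDD libraries (SD), a log2 difference of 0.19 ± 0.19 (SE, adjusted p = 0.4996; voom interval -0.08 to 0.43). cyp1c2 averaged 76.2 ± 24.4 CPM in ahrra-null TCDD libraries and 66.8 ± 7.35 CPM in wild-type TCDD libraries, a difference of 0.19 ± 0.23 (adjusted p = 0.599; voom interval -0.17 to 0.47). Without ahrra-null TCDD replicate 15 both CYP1C genes were called higher in ahrra-null, at 0.37 ± 0.07 (adjusted p = 0.000343) for cyp1c1 and 0.40 ± 0.08 (adjusted p = 0.000572) for cyp1c2, in a fit that called 11.5% of genes higher. cyp1a was then at -0.26 ± 0.13 (adjusted p = 0.187) and cyp1b1 at -0.00 ± 0.10 (adjusted p = 0.992). Replicate 15 was singled out for its low CYP1 levels. Leaving it out raises the ahrra-null means of these genes and narrows their spread, so the calls are not independent of that choice.

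With DMSO all 4 genes had lower mean levels in ahrra-null, and none passed the test over all libraries, where 21.6% of genes did. cyp1a averaged 4.06 ± 0.634 CPM in ahrra-null DMSO libraries (SD, n = 4) and 6.74 ± 1.25 CPM in wild-type DMSO libraries (SD, n = 3), and the groups did not overlap, with ahrra-null lower; this held for 13.2% of all genes tested. Its log2 difference was -0.73 ± 0.46 (SE, adjusted p = 0.298). cyp1c1 averaged 10.8 ± 0.822 CPM in ahrra-null DMSO libraries and 13.9 ± 1.91 CPM in wild-type DMSO libraries, also with no overlap, a difference of -0.36 ± 0.26 (adjusted p = 0.360). The groups overlapped for cyp1b1, at -0.24 ± 0.34 (adjusted p = 0.672), and for cyp1c2, at -0.36 ± 0.47 (adjusted p = 0.645).

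The DMSO calls turned on which libraries set the spread. A fit of the 7 DMSO libraries alone called cyp1a (-0.73, adjusted p = 0.00542) and cyp1c1 (-0.36, adjusted p = 0.0311) lower in ahrra-null, as it did 8.43% of genes. A fit of all groups without ahrra-null TCDD replicate 15 did so too, with an SE of 0.21 for cyp1a (adjusted p = 0.0287) and 0.09 for cyp1c1 (adjusted p = 0.00449), beside 11.4% of genes called lower. Markers of hepatocytes, one of the cell types in which CYP1 enzymes act, moved with genotype: 8 of 12 tested were lower in ahrra-null with DMSO and 5 of 12 with TCDD, where 11.7% and 13.1% of all genes were called lower. Their summed level was 242 to 399 CPM in ahrra-null TCDD libraries, 358 to 445 CPM in ahrra-null DMSO libraries, 470 to 525 CPM in wild-type TCDD libraries and 477 to 972 CPM in wild-type DMSO libraries. Other lists moved with genotype too. Of 21 electron donor and heme genes 8 were lower and 1 higher with DMSO, and 8 lower and 0 higher with TCDD. Of 16 AHR-linked and phase II genes 6 were lower with DMSO and 4 with TCDD. Among 11 AHR receptor and partner genes, 3 were lower and 0 higher with DMSO, and 3 lower and 1 higher with TCDD. Kidney and erythroid markers were called in both directions at each exposure. Vascular endothelium markers, 13 tested, had 0 called with DMSO and 1 higher with TCDD. Heart muscle markers, 9 tested, had 1 lower with DMSO and 3 higher with TCDD. Epidermis, brain and CYP1 substrate lists also held called genes at each exposure. Over all genes tested, 21.6% were called in either direction with DMSO and 25.8% with TCDD. The part of hepatocytes and of these other lists in the CYP1 differences was not tested. Genotype cannot be told apart from other differences between the lines.

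Marker lists of other cell types were read beside the TCDD effects, where 0.361% of all genes tested were called lower in ahrra-null and 0.375% in wild type. Of 13 vascular endothelium markers 0 rose and 0 fell with TCDD in ahrra-null, and 0 rose and 1, clec14a, fell in wild type. Their summed level stayed within 186 to 197 CPM in ahrra-null TCDD libraries, 189 to 197 CPM in ahrra-null DMSO libraries, 182 to 189 CPM in wild-type TCDD libraries and 186 to 194 CPM in wild-type DMSO libraries. Of 9 tested heart muscle markers 1, nppa, fell in ahrra-null, and 4, nppa, MYH6 (ENSDARG00000079564) and 2 genes printed as TNNT2, fell in wild type. The listed gene printed as myh6 (ENSDARG00000090637) was not among those called. None of the hepatocyte, epidermis, kidney or brain markers was called with TCDD in either line, and of 7 erythroid markers 1, alas2, fell in ahrra-null. The log2 change was still negative for 10 of 12 tested hepatocyte markers in ahrra-null (median -0.35) and 12 of 12 in wild type (median -0.41). All 9 tested heart muscle markers had a negative change in both lines, with medians of -0.18 in ahrra-null and -0.54 in wild type. No marker of these lists was at 0 in every library, and the part of these cell types in the CYP1 levels was not tested.

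Whether the size of the TCDD response itself differed between the lines was tested as an interaction of genotype and TCDD. Over all libraries edgeR called 0 of 21606 genes. Its unadjusted p was under 0.05 for 1117 genes, or 5.17%, near the share that chance alone gives. DESeq2 called 8 and limma voom 6. The interaction was 0.25 ± 0.53 for cyp1a (log2, SE, adjusted p = 0.986), 0.03 ± 0.41 for cyp1b1 (adjusted p = 0.997), 0.56 ± 0.32 for cyp1c1 (adjusted p = 0.963) and 0.54 ± 0.52 for cyp1c2 (adjusted p = 0.973). The unadjusted voom interval for cyp1c1 ran from 0.03 to 1.23, and those of the other 3 genes held 0: -0.86 to 1.53 for cyp1a, -0.78 to 0.83 for cyp1b1 and -0.59 to 1.63 for cyp1c2. Without ahrra-null TCDD replicate 15 the test called 2 genes, or 0.00927%. One was cyp1c1, at 0.73 ± 0.11 (adjusted p = 0.0175). The other, klf2b (a Krüppel-like factor gene), was at 0.99 ± 0.14 (adjusted p = 0.0237) and is named for that count alone. Since replicate 15 was singled out for its low CYP1 levels, the call of cyp1c1 is not independent of leaving it out.

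**Figure D3:**
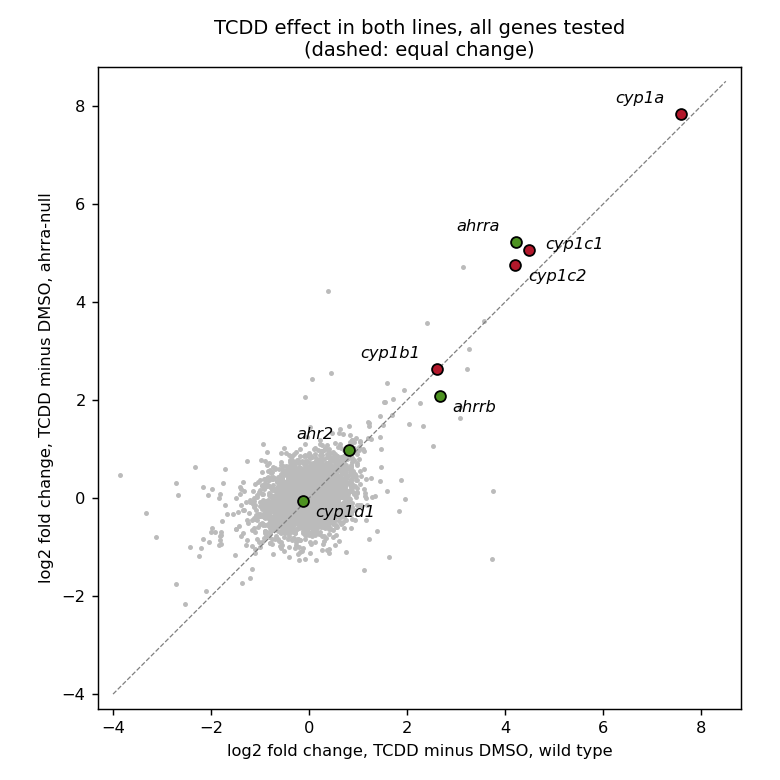
TCDD effect (log2 fold change, TCDD over DMSO) in ahrra-null on the vertical axis and in wild type on the horizontal axis for all genes tested, with the 4 CYP1 genes, cyp1d1, ahrra, ahrrb and ahr2 named and the line of equal effect drawn. The 4 CYP1 genes lie at the upper end in both lines, with cyp1c1 at 5.05 in ahrra-null and 4.50 in wild type. cyp1d1 lies at -0.05 in ahrra-null and -0.13 in wild type. No interaction passed the test over all libraries.

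Replicate 15 of the ahrra-null TCDD group was low for all 4 genes at once. It held 42.9% of the mean of the other 3 libraries for cyp1a, 45.0% for cyp1b1, 53.2% for cyp1c1 and 45.3% for cyp1c2. ahrra stood at 41.8% and ahrrb at 50.3% there, while ahr2 stood at 85.5% and tiparp at 75.8%. Among 100 other genes raised by TCDD in wild type, 71 were lowest in replicate 15 of that group, beside 27.0% of all genes tested. Wild-type TCDD replicate 7 was also the lowest of its group for all 4 CYP1 genes, for cyp1c1 only at 307 CPM against 309 CPM in replicate 8. Of the same 100 genes 56 were lowest in replicate 7 of the wild-type TCDD group, beside 34.2% of all genes tested. Among 81 genes lowered by TCDD in wild type, replicate 15 was the highest of the 4 libraries for 25 and the lowest for 22. Its total of 16914063 counts was within the 16852240 to 18122286 of the other ahrra-null TCDD libraries, and it remained far above the DMSO libraries for all 4 genes. Without it the TCDD effects in ahrra-null were 8.05 ± 0.17 for cyp1a, 2.84 ± 0.11 for cyp1b1, 5.23 ± 0.08 for cyp1c1 and 4.96 ± 0.10 for cyp1c2 (log2, SE). The cause of its low levels was not tested.

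**Figure D4:**
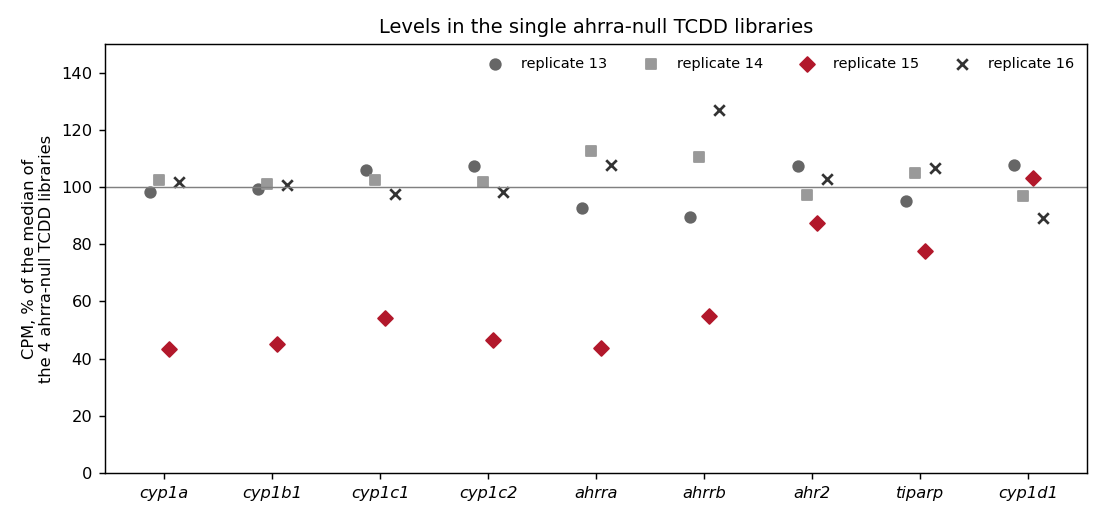
Level of the CYP1 genes, the receptor and feedback genes and cyp1d1 in the 4 ahrra-null TCDD libraries, one mark per library, as a percent of the median of the 4. Replicate 15 lies between 43.3% and 54.3% for the 4 CYP1 genes and at 103% for cyp1d1.

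How far the 4 genes moved together across libraries rested largely on replicate 15. Over the 14 libraries the deviations of log2 CPM from the group means correlated between pairs of the 4 genes with r from 0.863 to 0.939. Without that library, and with the group means taken again, r was 0.782 for cyp1b1 with cyp1a, 0.723 for cyp1c1 with cyp1a and 0.208 for cyp1c2 with cyp1c1, the highest and lowest of the 6 pairs being the first and the last. These are descriptions: the genes share each library's RNA and depth.

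Relative to cyp1a, the other 3 genes averaged higher in ahrra-null than in wild type at both exposures. The log2 ratio of cyp1c1 to cyp1a was -1.33, -1.44, -1.11 and -1.50 in ahrra-null TCDD libraries, against -2.26, -1.72 and -2.12 in wild-type TCDD libraries. With DMSO it was 1.30, 1.31, 1.54 and 1.52 in ahrra-null libraries, against 0.94, 1.00 and 1.21 in wild-type libraries. The lines did not overlap at either exposure, and replicate 15 lay on the same side as the rest of its group. In each line the TCDD library with the lowest cyp1a level had the highest ratio, replicate 15 in ahrra-null and replicate 7 in wild type. The side of replicate 15 is therefore not a test of genotype apart from its low cyp1a level. Averaged over the exposures the ratio was 0.53 higher in ahrra-null (log2; exact two-sided permutation of genotype labels within exposure, p = 0.00163, the smallest these libraries allow, adjusted p = 0.0049 over 6 pairs).

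The ratio of cyp1b1 to cyp1a averaged -4.81 ± 0.04 in ahrra-null TCDD libraries, against -5.08 ± 0.13 in wild-type TCDD libraries (log2, SD). With DMSO it averaged 0.40 ± 0.20 in ahrra-null and -0.09 ± 0.14 in wild type, again with no overlap at either exposure. The difference over both was 0.38 (exact permutation p = 0.00163, adjusted p = 0.0049). The ratio of cyp1c2 to cyp1a averaged -3.60 ± 0.09 in ahrra-null TCDD libraries, against -4.27 ± 0.17 in wild-type TCDD libraries, and -0.52 ± 0.22 in ahrra-null DMSO libraries, against -0.89 ± 0.29 in wild-type DMSO libraries, where the lines overlapped. Its difference was 0.52 (exact permutation p = 0.0049, adjusted p = 0.0098).

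Averaged over both exposures, ratios that leave cyp1a out did not pass the test. cyp1c2 over cyp1c1 differed by -0.01 between the lines (exact permutation adjusted p = 0.891). By the same exact test, cyp1c1 over cyp1b1 differed by 0.15 and cyp1c2 over cyp1b1 by 0.14, each with an adjusted p of 0.331. In the TCDD libraries alone no ratio could pass, since the smallest possible exact permutation p was 0.0571. The differences to cyp1a there were 0.27 for cyp1b1, 0.69 for cyp1c1 and 0.66 for cyp1c2. Those to cyp1b1 were 0.42 for cyp1c1 and 0.39 for cyp1c2 with TCDD, where the lines did not overlap for either ratio. With DMSO they were -0.12 for each, and the lines overlapped. Only 3 of the 6 log ratios are independent, and those with cyp1a share its values. A ratio to cyp1a higher in ahrra-null with no overlap at both exposures was seen for 19.7% of the other 21605 genes tested, and for 26 of 100 other genes raised by TCDD in wild type, so it is not particular to the CYP1 family. For that count 0.5 was added to the CPM of the gene set over cyp1a, unlike in the ratios above. A ratio shows unequal levels, not which of its genes differed.

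**Figure D5:**
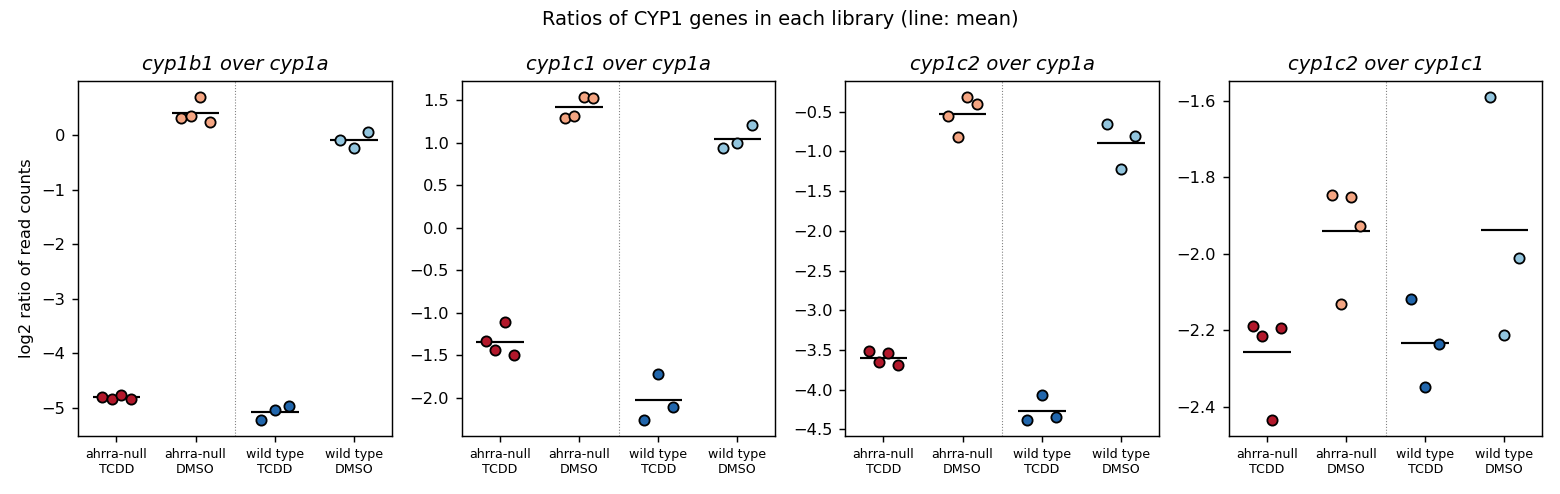
Log2 ratio of read counts of each other CYP1 gene to cyp1a, and of cyp1c2 to cyp1c1, with one point per library and a line at the group mean, ahrra-null groups left of the wild-type groups. For cyp1c1 the ahrra-null TCDD points lie between -1.50 and -1.11 and the wild-type TCDD points between -2.26 and -1.72.

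The 4 genes together made up 0.139% of counts in ahrra-null TCDD libraries, 0.00227% in ahrra-null DMSO libraries, 0.175% in wild-type TCDD libraries and 0.00305% in wild-type DMSO libraries. Their summed level was 1397 ± 439 CPM in ahrra-null TCDD libraries, 23.0 ± 1.99 CPM in ahrra-null DMSO libraries, 1719 ± 294 CPM in wild-type TCDD libraries and 30.5 ± 3.62 CPM in wild-type DMSO libraries (SD). The make-up of these reads changed with TCDD. Of the reads of these 4 genes, cyp1a held 66.1% ± 2.28 in ahrra-null TCDD libraries and 17.6% ± 1.39 in ahrra-null DMSO libraries. In wild type cyp1a held 75.3% ± 3.16 in TCDD libraries and 22.0% ± 1.54 in DMSO libraries. cyp1c1 held 26.1% ± 2.24 in ahrra-null TCDD libraries, 46.9% ± 1.76 in ahrra-null DMSO libraries, 18.6% ± 2.87 in wild-type TCDD libraries and 45.4% ± 2.38 in wild-type DMSO libraries (SD). cyp1d1 is not counted in these sums and shares. It averaged 11.2 CPM in ahrra-null DMSO libraries and 11.8 CPM in wild-type DMSO libraries, so shares of all family reads would be lower there. Shares of reads depend on transcript length as well as on transcript number.

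Genes whose levels followed the CYP1 genes most closely over the 14 libraries were named by the correlation of log2 CPM, leaving the 4 themselves out of the ranking; their own pairwise r was 0.984 to 0.998. fgf7, which encodes a fibroblast growth factor, was among the 5 closest other genes for all 4, with r of 0.994 to cyp1a, 0.992 to cyp1b1, 0.994 to cyp1c1 and 0.995 to cyp1c2. It had 38.8, 40.8, 18.1 and 38.4 CPM in ahrra-null TCDD libraries, against 3.12, 2.37, 2.80 and 2.75 CPM in ahrra-null DMSO libraries. The wild-type level of fgf7 was 40.5, 33.2 and 34.9 CPM with TCDD, against 2.99, 3.83 and 2.38 CPM with DMSO. Its groups did not overlap in either line, and its TCDD effect was 3.62 ± 0.28 in ahrra-null (log2, SE, adjusted p = 6.08e-05) and 3.56 ± 0.32 in wild type. Every TCDD library lay above every DMSO library for 3.14% of genes in ahrra-null and 6.64% in wild type. Since fgf7 was named by a correlation over these same libraries, its TCDD effect is not separate evidence.

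The 5 closest other genes were nearly the same for each of the 4. ugt1b5, sult6b1 and ENSDARG00000097714, a gene printed under a clone name, were among them for all 4, ahr2 for cyp1a, cyp1c1 and cyp1c2, and foxg1d for cyp1b1. ENSDARG00000097714 rose by 3.04 ± 0.25 in ahrra-null (log2, SE, adjusted p = 8.44e-06) and 3.26 ± 0.26 in wild type (adjusted p = 1.05e-05). These correlations mostly measure the gap between TCDD and DMSO libraries, which all such genes share. On deviations from the group means, which leave that gap out, the closest other gene with a mean of at least 1 CPM was TPD52 for cyp1a (r = 0.953), ENSDARG00000097714 for cyp1b1 (0.956), MEGF6 for cyp1c1 (0.937) and TLCD5 for cyp1c2 (0.956). Each of these was lowest in replicate 15 among the ahrra-null TCDD libraries, and each is the highest of the correlations with all such genes. Without that library r was 0.857 for TPD52 with cyp1a, 0.862 for ENSDARG00000097714 with cyp1b1, 0.646 for MEGF6 with cyp1c1 and 0.765 for TLCD5 with cyp1c2.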

How the data were processed

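RNA was sequenced from 14 whole-embryo samples. The deposited values are raw counts of reads for each Ensembl gene, with no normalization. Libraries were unstranded (Illumina TruSeq) and made from total RNA, per the labels' protocols, so reads of overlapping genes on opposite strands cannot be told apart. cutadapt, TopHat2, SAMtools, HTSeq and edgeR were used with build GRCz10, per the submitters' processing notes; the sources used here do not give versions, annotation release or the treatment of multiply matching reads. No coordinates, lengths or sequences of that build were used.

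Groups came from the sample titles. Genes were kept by edgeR's filterByExpr (minimum count 10), which set aside 10499. Counts were scaled by TMM, and a robust quasi-likelihood model of 4 groups (edgeR 4.0.16, R 4.3.3, prior count 0.125) was fitted over all 14 libraries, with 5 contrasts and Benjamini-Hochberg adjustment over all genes tested. SEs are the log2 fold change over the root of F and are approximate. Intervals of 95% came from limma 3.58.1 voom with sample quality weights. CPM use TMM-scaled totals. Ratios are the log2 quotient of the CPM of 2 genes in a library and were compared by an exact permutation test. The fits were also run on simulated counts in which no library stood apart, so those runs do not bear on a library that does.

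Named genes are the 4 members, cyp1d1, ahrra, ahrrb, ahr2, tiparp, list members that passed the test, and the genes closest to each member (top 5 by log2 CPM, top 3 by deviations, of which the first is printed). The members and the gene lists were chosen with earlier results of these data known. List symbols were matched by name, and 142 of 151 were found. Alternatives were other scalings, filters, DESeq2 1.42.0, voom, a fit of the compared groups and leaving out each library.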

Additional observations from a re-analysis of the deposited data

Results flagged for a closer look

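One library stood apart for all 4 CYP1 genes. In the ahrra-null TCDD group, replicate 15 was far below the other 3 libraries, at 465 CPM for cyp1a, 17.2 CPM for cyp1b1, 216 CPM for cyp1c1 and 39.9 CPM for cyp1c2. Its gap to the nearest library, as a share of the group's range, was 0.928, 0.970, 0.835 and 0.852 for these genes, above Dixon's 95% critical value for 4 samples. With 4 genes in both ahrra-null groups, 8 sets of 4 values were looked at, and chance alone passes that value in about 5% of such sets. The 4 results are not independent, since they share the library. The cause was not tested.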

How the results depend on the processing

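The TCDD effects of all 4 genes kept their direction and their call in both lines under all 22 alternatives, with a highest adjusted p of 0.0148. Called genes, 0 for the interaction, were 8 under DESeq2 and 6 under voom; voom called 381 in place of 185 for TCDD in wild type. Voom called cyp1a in the genotype comparison with TCDD (-0.51), and a fit of the compared groups called cyp1a (-0.73) and cyp1c1 (-0.36) with DMSO. Ratios to cyp1a from TCDD libraries alone differed by 0.27 (cyp1b1), 0.69 (cyp1c1) and 0.66 (cyp1c2), each with an exact permutation adjusted p of 0.0686, where the smallest possible unadjusted p was 0.0571. Ratios to cyp1b1 from the same libraries differed by 0.42 (cyp1c1) and 0.39 (cyp1c2), each with that same exact permutation adjusted p of 0.0686.

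Leaving out each library gave 141 to 374 called genes for TCDD in ahrra-null (254 with all), 82 to 388 in wild type, 2844 to 5019 for genotype with DMSO (4670 with all) and 0 to 10 for the interaction. Counts moved by over 1.5 times without ahrra-null TCDD replicate 13 (141), 14 (148) or 16 (149) or ahrra-null DMSO replicate 11 (158) or 12 (167); in wild type without TCDD replicate 6 (82) or 8 (94) or DMSO replicate 3 (89) or 4 (388); and for genotype without wild-type DMSO replicate 2 (2844). The interaction count was 2 without ahrra-null TCDD replicate 15, 1 without ahrra-null TCDD replicate 16 or ahrra-null DMSO replicate 12, and 10 without wild-type DMSO replicate 4. The ranges for single genes were 0.10 to 0.37 for cyp1c1 and 0.081 to 0.40 for cyp1c2 (genotype with TCDD), -0.85 to -0.58 for cyp1a and -0.42 to -0.24 for cyp1c1 (genotype with DMSO), 0.43 to 0.73 for cyp1c1 and -0.11 to 0.24 for cyp1b1 (interaction), and -0.081 to 0.074 for the ratio of cyp1c2 to cyp1c1. Calls of members appeared only without replicate 15 among these, and the signs of the last 2 turned. No paired analysis was possible because the groups share no replicate numbers. Among the 4 CYP1 genes, cyp1c2 had the fewest reads with DMSO, 47 to 79 per library; ahrra, at 12 to 27, and ahrrb, at 7 to 20, had fewer. The correlations without replicate 15 were added after the data were seen.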
